A study of Mus musculus with 4 samples.

Results

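The 10 genes described here are L1cam, Chl1, Nrcam, Nfasc, Ncam1, Ncam2, Cntn1, Cntn2, Dscam and Alcam, which encode adhesion molecules of the immunoglobulin (Ig) superfamily found on nerve cells. They were taken by symbol from a deposited table of raw read counts for 24982 genes, and all 10 symbols were found. The table holds 4 RNA-seq libraries of mouse forebrain, micro-dissected on embryonic day E10.5. The 2 conditional knockout (cKO) libraries carried 1 copy of Sox1 cre and floxed copies of both Chd7 alleles (Sox1 cre+/-; Chd7 f/f). The 2 control libraries carried 1 floxed and 1 wild-type allele (Chd7 +/f), and their label names no Cre. Chd7 encodes an ATP-dependent chromatin remodeller, and the title asks how it affects neurogenic gene expression. Sox1 marks the early neural tube, and the dissection can also hold other tissue, such as blood, vessels and mesenchyme. Whether the Cre acted in any of that tissue is not given. The labels name Cre in the cKO alone and do not say whether a library is 1 embryo or a pool. An effect of the Cre allele and one of Chd7 loss therefore cannot be told apart, and p-values measure only the spread between these libraries.

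Ig adhesion molecules carry a row of extracellular Ig domains with which they bind like molecules, or different ones, on a neighbouring cell. In the developing nervous system they are known for axon growth, bundling and guidance, and new neurons begin to display several of them as they leave the progenitor layer. L1CAM, CHL1, NrCAM and neurofascin form the L1 family, whose cytoplasmic tails bind ankyrins. NCAM1 and NCAM2 form a second family. Contactins 1 and 2 are held in the membrane by a lipid anchor and signal through partners, while DSCAM and ALCAM belong to smaller groups.

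In the cKO forebrain, Nrcam fell to 35.7% of its control level, and it was the 1 gene of the 10 whose change passed the test. Chl1 and Alcam were lower in both cKO libraries than in either control and missed the threshold in the edgeR quasi-likelihood test, while both passed it in the authors' deposited table. The more abundant family members Ncam1 and Nfasc, and L1cam, had overlapping groups. Ncam2 was close to undetected outside 1 control library. Of the 10 genes, 9 passed the filter on low counts and were tested, and 1 of these 9 was called, against 2.13% of all 14235 tested genes that were called lower (adjusted p under 0.05, Benjamini-Hochberg over all genes tested). Calls in either direction made up 3.70% of all genes tested. No member was called higher by edgeR, 0 had an unadjusted p under 0.05 in that direction, and DESeq2 and limma-voom called 0 higher as well. The median log2 fold change of the 9 was -0.25, beside -0.00028 over all genes tested. In 4 of the 10 genes (Chl1, Nrcam, Cntn2 and Alcam) both cKO libraries lay below both controls, an arrangement found in 24.0% of all genes tested. In 0 of the 10 did both lie above both controls (24.3% of all genes tested).

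**Figure D1:**
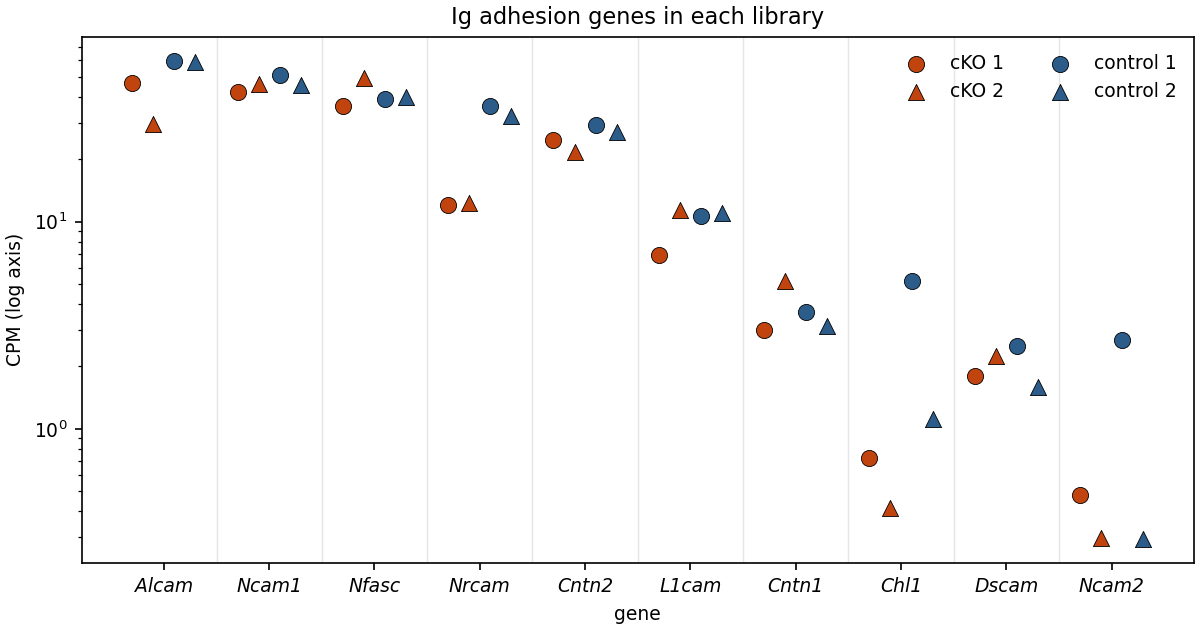
Level of each of the 10 genes in each library, in CPM on a log axis, with cKO libraries in orange and control libraries in blue. The cKO points of Nrcam lie near 12 CPM, below both control points, and the control points of Chl1 and Ncam2 lie far apart.

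Library totals ranged from 16581252 to 17096522 counts, and levels are given as CPM, counts scaled to the library total after TMM adjustment. Chd7 measured 136 and 132 CPM in the cKO libraries, against 339 and 345 CPM in the controls (log2 fold change -1.35, SE 0.05, edgeR adjusted p = 8.7e-05); its counts cover all exons, and the sources used here do not give the floxed exon. Sox1, the carrier of the Cre, measured 139 and 147 CPM in the cKO libraries, against 177 and 173 CPM in the controls (-0.29, SE 0.05, adjusted p = 0.031). That call was lost without cKO replicate 1 (0.137), cKO replicate 2 (0.083) or control replicate 1 (0.099). Libraries of the same group differed in markers of other tissue. The summed surface ectoderm markers (5 genes) stood at 59.2 and 46.8 CPM in the cKO libraries and at 13.4 and 50.0 CPM in control replicates 1 and 2. All 5 had fitted changes above 0, and edgeR called 0 of them. Epcam of that list measured 20.6 and 17.6 CPM in the cKO libraries, against 6.54 and 11.2 CPM in the controls. Its log2 fold change was 1.11 (edgeR adjusted p = 0.052, DESeq2 0.0021, limma-voom 0.045). Krt18 had overlapping groups (0.87, edgeR adjusted p = 0.44). Trp63 of that list had 0 counts in control replicate 1, as did Sox10 and Foxd3 of the mesenchyme and neural crest list. Foxd3 was near the floor in every library, with 2 and 1 counts in the cKO libraries and 3 in control replicate 2. The summed mesenchyme and neural crest markers (8 genes) stood at 695 and 452 CPM in cKO replicates 1 and 2 and at 736 and 790 CPM in the controls. The 13 new-neuron markers summed to 629 and 646 CPM in the cKO libraries and to 1106 and 896 CPM in the controls, with none at 0. Of these 13 markers, 4 were called lower. The 7 erythroid markers summed to 1840 and 1755 CPM in the cKO libraries against 2762 and 2984 CPM in the controls, with 5 of 6 tested called lower and Hba-a1 at 0 in all 4 libraries. The forebrain marker Six3 measured 53.8 and 47.4 CPM in the cKO libraries, against 31.4 and 40.7 CPM in the controls (adjusted p = 0.095). The 6 midbrain and hindbrain markers summed to 3.80 and 5.86 CPM in the cKO libraries and to 2.28 and 2.59 CPM in the controls, with Hoxa2 and Hoxb1 at 0 counts in all 4 libraries. Gbx2, the 1 marker of that list tested, had 59 and 86 counts in the cKO libraries and 37 and 36 in the controls (log2 fold change 0.99, edgeR adjusted p = 0.144). In bulk tissue, fewer cells of a type and less RNA per cell cannot be told apart.

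Nrcam encodes the neuron-glia-related member of the L1 family, which binds contactins and serves as a co-receptor for semaphorins on axons. It lies on chromosome 12 (GRCm38, 44328786 to 44605194, plus strand), and its exons overlap no other gene in GENCODE M21. Counts were 200 and 209 in the cKO libraries and 600 and 549 in the controls. In CPM these are 12.1 and 12.4 in cKO forebrain, against 36.0 and 32.3 in control forebrain. The libraries of each group lay close together and the groups were far apart. The mean was 12.2 ± 0.22 CPM in cKO and 34.2 ± 2.6 CPM in control (SD, n = 2 each), 2.80-fold lower in the cKO. The log2 fold change was -1.48 (SE 0.11, edgeR adjusted p = 0.0014), with a 95% interval of 2.33-fold to 3.36-fold lower. By p-value Nrcam ranked 21 of the 14235 genes tested. Its call held with each library left out in turn, with log2 fold changes of -1.56 to -1.40 and adjusted p of 0.00042 to 0.0071, and with the DESeq2 and limma-voom tests.

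The summed level of new-neuron markers was lower in the same libraries, so the level of Nrcam was also set against them. Nrcam came to 1.92% and 1.91% of the summed CPM of the 13 new-neuron markers in the cKO libraries, against 3.25% and 3.61% in the controls. Against the 9 neural progenitor markers, of which 3 were called lower, it came to 0.450% and 0.429% in cKO libraries and to 1.05% and 1.07% in control libraries. The progenitor markers summed to 2681 and 2883 CPM in the cKO libraries and to 3416 and 3025 CPM in the controls. On either scale both cKO libraries were below both controls. Such sums are weighted to the most abundant markers. On the new-neuron list Mapt (log2 fold change -1.52, edgeR adjusted p = 0.0086) and Tbr1 (-1.90, edgeR adjusted p = 0.119) fell at least as far as Nrcam. The median of that list was -0.65, with 11 markers below 0 and 2 above. The part of cell numbers in the fall of Nrcam was not tested.

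The promoter window of Nrcam is shown because Nrcam is the member that edgeR called. It is a 300-base RefSeq window of GRCm38.p6 around an annotated start, at chr12:44328635-44328934 on the plus strand. Capitals mark the E-box CANNTG, the core sequence bound by proneural and other bHLH factors; the motif reads the same on both strands.
Nrcam: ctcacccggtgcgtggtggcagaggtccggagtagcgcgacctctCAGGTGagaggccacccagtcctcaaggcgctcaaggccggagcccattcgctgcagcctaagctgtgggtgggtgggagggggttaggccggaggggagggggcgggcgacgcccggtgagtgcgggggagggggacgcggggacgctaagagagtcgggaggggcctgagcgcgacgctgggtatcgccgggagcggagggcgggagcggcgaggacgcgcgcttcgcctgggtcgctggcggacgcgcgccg
It holds 1 E-box, CAGGTG, 37 CG dinucleotides and a GC content of 74.0%. The median over the 32841 RefSeq promoter windows was 7 CG dinucleotides and a GC content of 52.7%, and 72.3% of windows held a CANNTG. Windows were found for 9 of the 10 genes, 13 in all, with 3 to 41 CG dinucleotides each, and those of 6 genes held a CANNTG. A match describes letters and not a bound site.

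Chl1 gave the largest fitted change of the 9 tested genes and rested on few reads. Chl1, the close homologue of L1, is known for guiding cortical neurons and their axons. Its counts were 12 and 7 in the cKO libraries, against 86 and 19 in control replicates 1 and 2. Control replicate 1 stood far above the other 3 libraries. The exact Poisson 95% interval of its 86 counts was 68.8 to 106, and that of the 19 counts in control replicate 2 was 11.4 to 29.7; such intervals cover counting error only. The log2 fold change was -2.45 (SE 0.76, edgeR adjusted p = 0.147), with a 95% interval of -4.22 to -0.68. Without control replicate 1 it was -0.97 (adjusted p = 0.65), and without control replicate 2 it was -3.17 (adjusted p = 0.0057). In the authors' deposited table Chl1 had a log2 fold change of -2.47 and an adjusted p of 0.042.

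Nfasc encodes neurofascin, which organises the axon initial segment and the node of Ranvier in mature neurons. It measured 36.2 and 49.5 CPM in the cKO libraries, against 38.9 and 40.0 CPM in the controls. The controls lay between the cKO libraries. Its log2 fold change was 0.12 (95% interval -0.21 to 0.44, edgeR adjusted p = 0.73), and without cKO replicate 2 it was -0.12. L1cam, the founding member, is X-linked and supports axon growth and fasciculation. It measured 6.87 and 11.4 CPM in cKO replicates 1 and 2 and 10.6 and 11.0 CPM in the controls. Here cKO replicate 1 stood below the other 3 libraries. The log2 fold change was -0.25 (95% interval -0.80 to 0.31, edgeR adjusted p = 0.67), and it turned to 0.07 without cKO replicate 1 and to -0.65 without cKO replicate 2 (adjusted p = 0.27). Of the L1cam exon bases, 100 of 7347 overlap Arhgap4 on the same strand, and reads there cannot be assigned to either gene with certainty.

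In the NCAM family the abundant gene had overlapping groups and the rare one varied between the controls. NCAM1, the neural cell adhesion molecule, carries polysialic acid in embryonic brain. Its counts gave 42.1 and 46.1 CPM in the cKO libraries and 51.2 and 45.4 CPM in the controls. The groups overlapped, with cKO replicate 2 above control replicate 2. The log2 fold change was -0.13 (SE 0.09, edgeR adjusted p = 0.52), and its 95% interval, -0.34 to 0.08, sets the precision. Reads over 417 of its 8664 exon bases are shared with Gm11149 on the opposite strand, and the recorded counting command sets no strand option.

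Ncam2, known for roles in olfactory axons, had 8 and 5 counts in the cKO libraries, against 45 and 5 in control replicates 1 and 2. The 45 counts of control replicate 1 (exact Poisson 95% interval 32.8 to 60.2) stood apart from the other 3 libraries, whose intervals end at 15.8 or lower. The gene did not pass the filter on low counts. With no filter its log2 fold change was -1.92 (edgeR adjusted p = 0.42), and the authors' deposited table gives -1.95 with an adjusted p of 0.54. With cKO replicate 1, cKO replicate 2 or control replicate 2 left out, it passed the filter through control replicate 1. Its log2 fold changes in those fits were -2.31, -1.61 and -2.77, and each rests on control replicate 1. Without control replicate 1 it was not tested. The same library was the highest in Chl1 and in Tbr1, a transcription factor of early cortical neurons on the new-neuron list, which had 204 and 101 counts in the cKO libraries and 868 and 273 in the controls. Of the 13 new-neuron markers, 8 were higher in control replicate 1 than in control replicate 2. Others were lower in it, such as Nefl (16.5 and 29.7 CPM in control replicates 1 and 2) and Nefm (32.8 and 52.0 CPM). The part of dissection or neuron number in the gap between the controls was not tested.

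**Figure D2:**
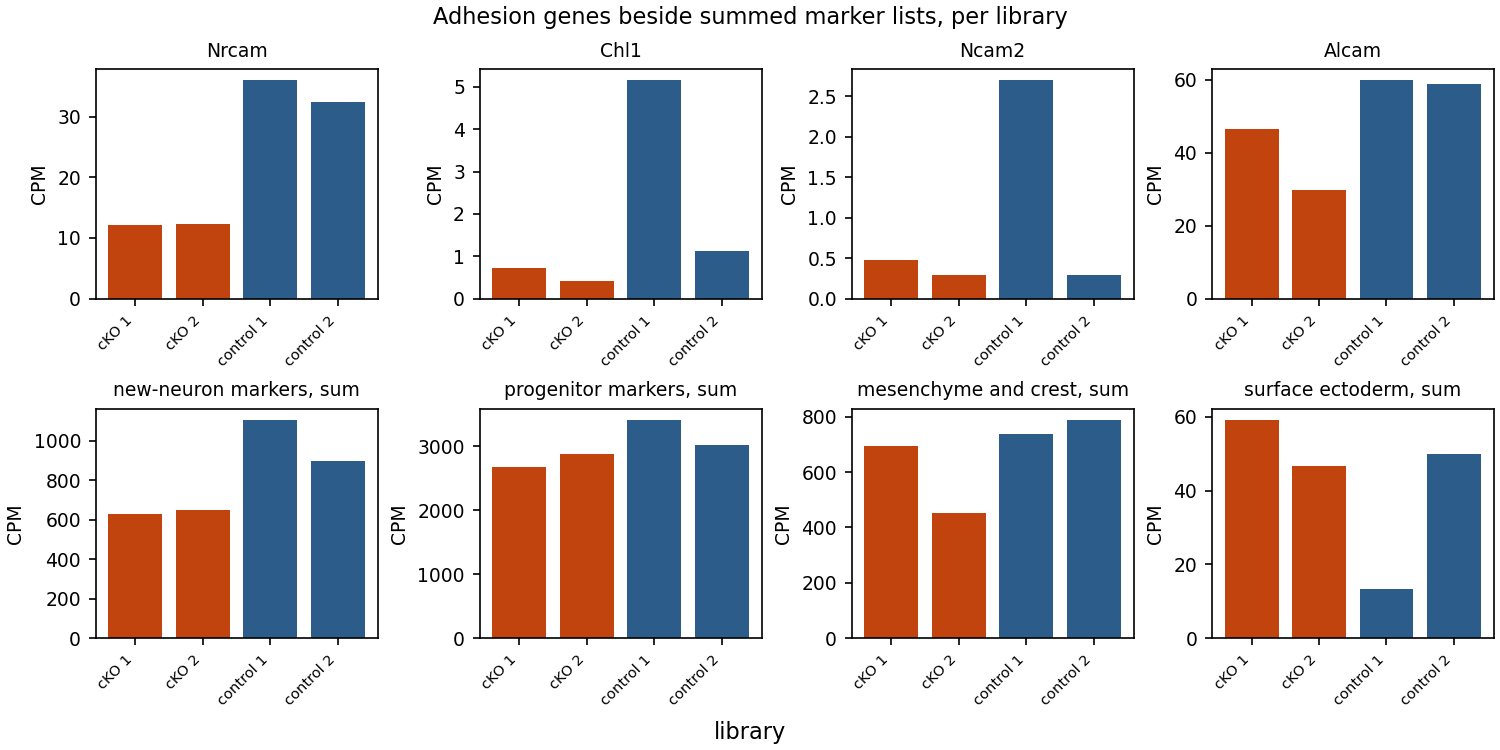
Levels in CPM of Nrcam, Chl1, Ncam2 and Alcam (top) and summed CPM of marker lists (bottom) in each library, as bars from 0, with cKO in orange and control in blue. Nrcam is at 12.1 and 12.4 CPM in the cKO libraries and above 30 CPM in both controls; control replicate 1 is highest in Chl1 and Ncam2 and lowest in surface ectoderm markers, and cKO replicate 2 is lowest in Alcam and in mesenchyme and crest markers.

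The contactin genes Cntn1 and Cntn2 did not pass the test. Cntn2 encodes TAG-1, a contactin displayed early on outgrowing axons, and measured 24.7 and 21.8 CPM in cKO forebrain, against 29.2 and 27.2 CPM in control forebrain. Both cKO libraries were below both controls by a small margin. The log2 fold change was -0.28 (SE 0.11, edgeR adjusted p = 0.25, unadjusted p = 0.036), with a 95% interval of -0.53 to -0.02. Cntn1, which encodes a ligand of Notch and a partner of receptor phosphatases, measured 3.01 and 5.15 CPM in the cKO libraries and 3.66 and 3.12 CPM in the controls. The controls lay between the cKO libraries, and the log2 fold change of 0.27 (95% interval -0.48 to 1.02, edgeR adjusted p = 0.74) was -0.17 without cKO replicate 2. Cntn2 and Nfasc are neighbours on chromosome 1 (132509425 to 132543251 and 132564690 to 132741848), 21.4 kilobases apart with no protein-coding gene between them. Their fitted changes had opposite signs, and neither was called.

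Dscam, the Down syndrome cell adhesion molecule gene, which is needed for self-avoidance of neurites in the mouse retina, was rare. It had 30 and 38 counts in the cKO libraries and 42 and 27 in the controls. The groups overlapped, and the log2 fold change was -0.02 with a 95% interval of -0.89 to 0.86 (edgeR adjusted p = 0.99). The lower end of that interval is 1.85-fold lower, and changes inside it are compatible with these libraries. Exons of Dscam share 273 of 8800 bases with opposite-strand transcripts.

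Alcam, also called CD166, is made by neurons growing axons and by cells outside the nervous system. It measured 46.5 and 29.8 CPM in cKO replicates 1 and 2, against 59.9 and 58.7 CPM in the controls. The controls were alike, and the cKO libraries were both lower and far from each other. The mean was 38.1 ± 12 CPM in cKO and 59.3 ± 0.84 CPM in control (SD, n = 2 each). The log2 fold change was -0.64 (SE 0.18, edgeR adjusted p = 0.110), with a 95% interval of 1.17-fold to 2.07-fold lower. Without cKO replicate 1 it was -0.99 (adjusted p = 0.0049), and without cKO replicate 2 it was -0.35 (adjusted p = 0.166). The DESeq2 Wald test called it (adjusted p = 0.0082), as did the authors' deposited table (log2 fold change -0.64, adjusted p = 0.0080).

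The cKO library with less Alcam also had less mesenchyme RNA. Col1a1 counts were 1812 and 1024 in cKO replicates 1 and 2 and 2087 and 2107 in the controls, and Col3a1 counts were 5853 and 4174 in the cKO libraries, against 7172 and 7220 in the controls. Alcam came to 6.70% and 6.58% of the summed mesenchyme and neural crest markers in the cKO libraries, against 8.13% and 7.43% in the controls. On this scale the cKO libraries were close to each other and both stayed below the controls. The sum is weighted to Col3a1, at 353 and 247 CPM in the cKO libraries and 430 and 425 CPM in the controls. Every marker of the list other than Col1a1 and Col3a1 was higher in cKO replicate 1 than in control replicate 1. In cKO replicate 2 each of them was lower than in control replicate 2. Against the new-neuron markers the groups overlapped, at 7.40% and 4.61% in the cKO libraries and 5.41% and 6.55% in the controls. Of the 8 mesenchyme and crest markers 7 were tested and 0 were called by edgeR, DESeq2 or limma-voom, with 0 higher and 2 lower at an unadjusted p under 0.05 in edgeR. The part of mesenchyme in the level of Alcam was not tested.

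**Figure D3:**
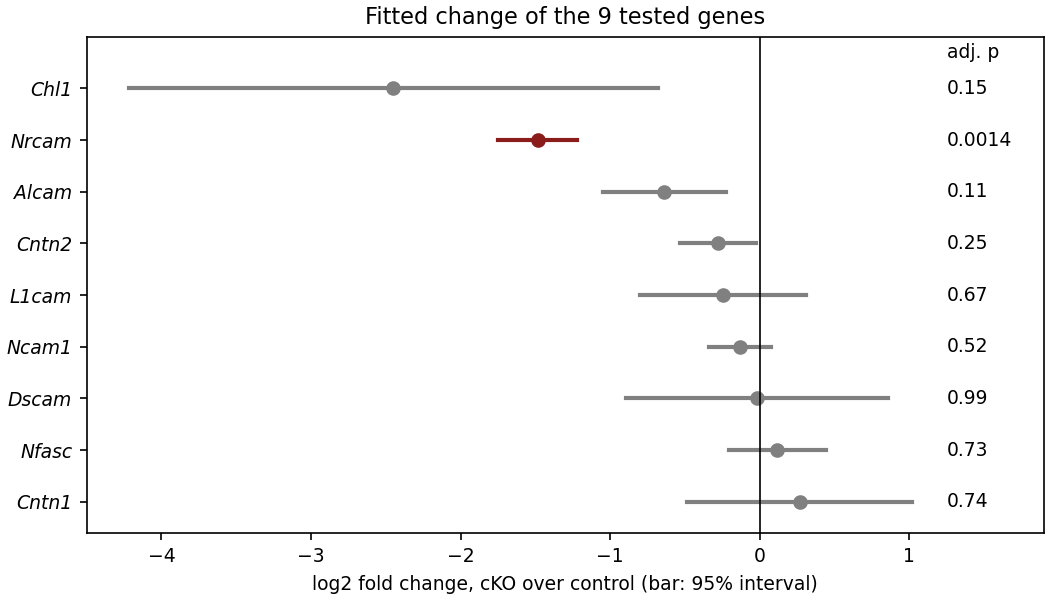
Fitted log2 fold change of the 9 tested genes, cKO over control, with 95% intervals as bars and edgeR adjusted p at the right. Nrcam (red) is the gene with an adjusted p under 0.05, and the interval of Chl1 is the widest, from -4.22 to -0.68.

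The authors' deposited table called 3 of the 10 genes (Nrcam, Alcam and Chl1), all lower, at an adjusted p under 0.05. Of the 13964 genes with an adjusted p there, 2.49% were called lower and 1.99% higher. Nrcam had a log2 fold change of -1.49 and an adjusted p of 2.2e-13 in the authors' deposited table. Fitted fold changes in the deposited table and in the edgeR fit differed by at most 0.017 in the 9 genes tested in both; the calls of Alcam and Chl1 differed by test.

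Levels between genes were compared per kilobase of exon (CPM per kb, exon union of GENCODE M21, while the reads were counted on a RefSeq annotation). In the cKO libraries Alcam and Ncam1 led, at 5.36 ± 1.7 and 5.09 ± 0.33 CPM per kb (SD, n = 2), and did not differ beyond their spread. Nfasc and Cntn2 followed at 3.03 ± 0.67 and 2.50 ± 0.22, again overlapping, then L1cam at 1.24 ± 0.43 and Nrcam at 0.914 ± 0.016. Cntn1 (0.433), Dscam (0.230), Chl1 (0.0463) and Ncam2 (0.0343) came last, the final pair overlapping. In the controls the order was Alcam (8.32 ± 0.12), Ncam1 (5.58 ± 0.47), Cntn2 (3.03 ± 0.15), Nfasc (2.79 ± 0.052), Nrcam (2.56 ± 0.19) and L1cam (1.47 ± 0.037), with no overlap between neighbours. Cntn1, Chl1, Dscam and Ncam2 followed, each overlapping the next. Nrcam thus ranked below L1cam in both cKO libraries and above it in both controls. The summed level of the 10 genes was 19.1 and 18.7 CPM per kb in the cKO libraries, against 25.7 and 23.8 CPM per kb in the controls. Of the difference between the group means, 50.7% was in Alcam and 28.1% in Nrcam. Without cKO replicate 2, a setting chosen after seeing the data, the shares were 31.7% for Alcam and 29.2% for Nrcam.

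**Figure D4:**
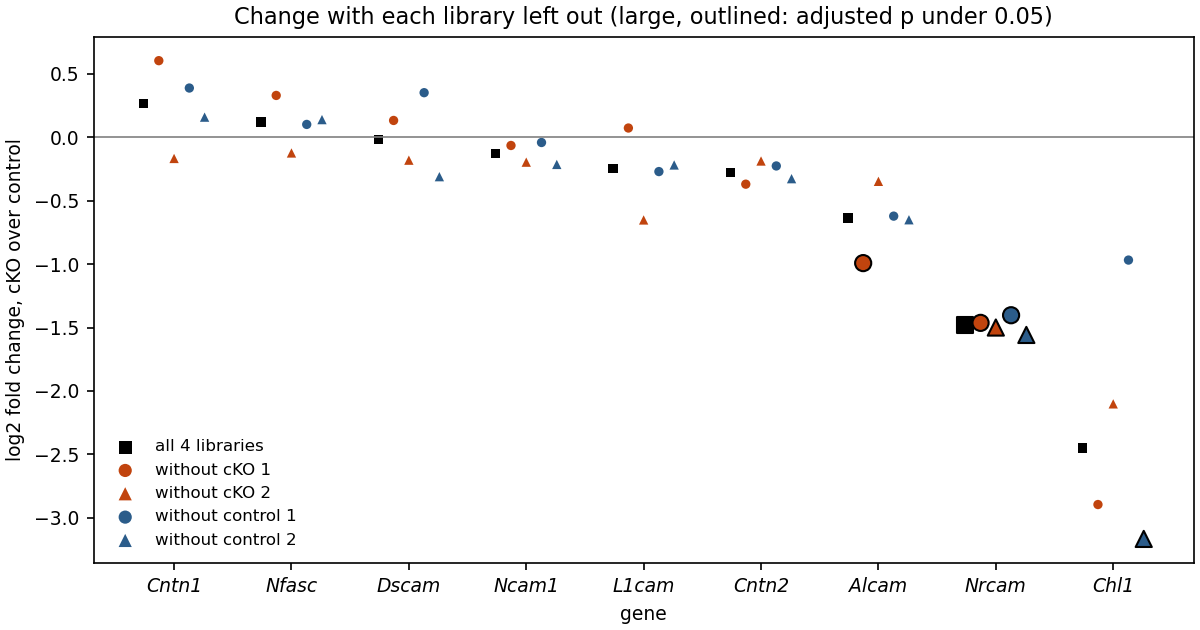
Log2 fold change of the 9 tested genes (cKO over control) with all 4 libraries and with each library left out, where large outlined points have an edgeR adjusted p under 0.05. Nrcam stays between -1.56 and -1.40, Chl1 spans -3.17 to -0.97, and L1cam, Nfasc, Cntn1 and Dscam cross 0.

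Among 28 other neural Ig adhesion genes, 25 were tested, and 2 were lower and 4 higher in the cKO (1.57% of all genes tested were called higher); the list median was 0.0027. The largest change was in Cntn6, a contactin, which had 9 and 8 counts in the cKO libraries and 57 and 59 in the controls. Cntn6 was 6.79-fold lower in the cKO (log2 fold change -2.75, SE 0.37, edgeR adjusted p = 0.011), a call lost without cKO replicate 2 (adjusted p = 0.074). Cntn6 lies on chromosome 6 beyond the end of Chl1, 760 kilobases away with no protein-coding gene between them. Cadm2, a synaptic adhesion gene named after its value was seen, had 7 and 5 counts in the cKO libraries, against 32 and 29 in the controls (log2 fold change -2.31, SE 0.47, edgeR adjusted p = 0.044). Both Cntn6 and Cadm2 passed the count filter through the control libraries alone, so being tested already required a difference. Cadm2 lost its call with any 1 of the 4 libraries left out (adjusted p 0.084 to 0.26), in DESeq2 (0.109) and in limma-voom (0.056).

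Promoter windows of these genes are shown beside that of Nrcam because Cntn6 and Cadm2 had the largest called falls on the Ig adhesion list, with CANNTG again in capitals. The windows are at chr6:104492794-104493093 on the plus strand for Cntn6 and at chr16:67620859-67621158 on the minus strand for Cadm2 (RefSeq, GRCm38.p6), each written 5′ to 3′.
Cntn6: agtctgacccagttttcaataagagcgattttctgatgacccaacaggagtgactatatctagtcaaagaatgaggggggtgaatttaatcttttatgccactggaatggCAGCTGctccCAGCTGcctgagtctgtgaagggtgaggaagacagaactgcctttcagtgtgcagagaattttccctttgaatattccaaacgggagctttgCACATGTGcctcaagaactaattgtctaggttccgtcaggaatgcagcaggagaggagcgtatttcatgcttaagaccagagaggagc
Cadm2: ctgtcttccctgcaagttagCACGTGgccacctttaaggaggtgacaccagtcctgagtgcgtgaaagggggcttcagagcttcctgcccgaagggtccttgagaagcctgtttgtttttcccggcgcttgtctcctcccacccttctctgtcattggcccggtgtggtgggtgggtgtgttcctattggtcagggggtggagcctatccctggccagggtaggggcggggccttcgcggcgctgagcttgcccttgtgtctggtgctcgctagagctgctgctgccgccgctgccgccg
The Cntn6 window holds 4 CANNTG matches, of which 2 are CAGCTG and 2 overlap each other, and 4 CG dinucleotides. CAGCTG was found in 16.3% of all windows. Cadm2 has 1 CANNTG match, CACGTG, and 15 CG dinucleotides.

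The 4 Ig genes that were higher had larger counts. Sdk2, a sidekick adhesion gene, measured 17.6 and 20.4 CPM in cKO libraries and 7.92 and 10.9 CPM in controls (log2 fold change 1.01, SE 0.18, edgeR adjusted p = 0.031), and lost its call without control replicate 1 (0.078) or cKO replicate 2 (0.139). Cadm1, which encodes SynCAM 1, measured 168 and 163 CPM in cKO libraries, against 139 and 137 CPM in controls (0.27, SE 0.05, adjusted p = 0.032). Mdga1, a lipid-anchored Ig protein of the developing cortex, measured 41.5 and 38.7 CPM in the cKO and 30.2 and 27.5 CPM in the control libraries (0.47, SE 0.09, adjusted p = 0.039). Igsf9b, named after its value was seen, measured 69.1 and 66.3 CPM in the cKO and 55.1 and 49.6 CPM in the control libraries (0.37, SE 0.07, adjusted p = 0.043). Each library left out ended the calls of Cadm1 (adjusted p 0.053 to 0.137) and Mdga1 (0.060 to 0.151), and that of Igsf9b ended in 3 of the 4 fits.

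Of 15 extracellular and co-receptor partners, 13 were tested, with 3 lower and 2 higher. Ptprz1, a receptor phosphatase whose extracellular part binds contactins and NrCAM, had the smallest p. It measured 112 and 95.2 CPM in the cKO libraries, against 332 and 229 CPM in the controls, 2.71-fold lower (log2 fold change -1.44, SE 0.16, edgeR adjusted p = 0.0058), and kept its call with each library left out. Ncan encodes neurocan, a proteoglycan that binds NCAM and L1, and measured 21.6 and 17.6 CPM in cKO libraries, against 55.7 and 35.0 CPM in controls (-1.21, SE 0.21, adjusted p = 0.029). Dcc, a netrin receptor, measured 73.5 and 65.2 CPM in cKO and 116 and 94.7 CPM in control libraries (-0.60, SE 0.10, adjusted p = 0.026). Without control replicate 1 the value of Ncan was -0.83 (adjusted p = 0.034), and without cKO replicate 2 the calls of Ncan (0.130) and Dcc (0.127) were lost; limma-voom gave Ncan 0.051.

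The partners that were higher form a pair: GDNF and its receptor GFRA1, for which NCAM1 serves as a signalling partner. Gfra1 measured 21.6 and 22.9 CPM in the cKO libraries, against 14.0 and 11.8 CPM in the controls (log2 fold change 0.79, SE 0.14, edgeR adjusted p = 0.025). Gdnf, named after its value was seen, had 41 and 51 counts in the cKO libraries and 9 and 12 in the controls (2.12, SE 0.40, adjusted p = 0.035). Both calls were lost without cKO replicate 1 (adjusted p = 0.059 for Gfra1 and 0.103 for Gdnf) or cKO replicate 2 (0.118 and 0.21), and that of Gdnf without control replicate 1 (0.135).

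Inside the cell, 2 of 10 linker and signalling genes were lower and 2 higher (list median -0.15). Pak1, a kinase acting on the actin cytoskeleton downstream of adhesion, measured 66.4 and 66.5 CPM in cKO libraries and 99.0 and 96.9 CPM in controls (log2 fold change -0.56, SE 0.06, edgeR adjusted p = 0.0037), and kept its call with each library left out. Ank2 encodes ankyrin-B, which binds the tails of the L1 family, and measured 68.3 and 73.6 CPM in the cKO libraries, against 92.3 and 86.8 CPM in the controls (-0.34, SE 0.07, adjusted p = 0.041); Ank3, for ankyrin-G, had 0.05 (adjusted p = 0.86). Ezr, for the membrane-actin linker ezrin, measured 249 and 255 CPM in the cKO and 183 and 147 CPM in the control libraries (0.61, SE 0.09, adjusted p = 0.017). Dlg1, a scaffold gene, had 0.34 (SE 0.05, adjusted p = 0.018). Leaving out cKO replicate 2 ended the calls of Ank2 (0.104), Ezr (0.067) and Dlg1 (0.076). Ank2 was also not called without control replicate 1 (0.138) or cKO replicate 1 (0.167), nor Dlg1 without these libraries (0.059 and 0.076).

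Of 5 enzymes that modify or cut these molecules, 1 was lower. St8sia4, a polysialyltransferase that acts on NCAM1, measured 14.2 and 12.8 CPM in the cKO libraries, against 22.6 and 19.9 CPM in the controls (log2 fold change -0.65, SE 0.13, edgeR adjusted p = 0.044). Its paralogue St8sia2 measured 41.7 and 41.1 CPM in the cKO libraries and 51.6 and 49.9 CPM in the controls (-0.29, SE 0.07, adjusted p = 0.073). The call of St8sia4 remained in the fit without control replicate 2 and was lost in the other 3 (adjusted p 0.086 to 0.190).

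**Figure D5:**
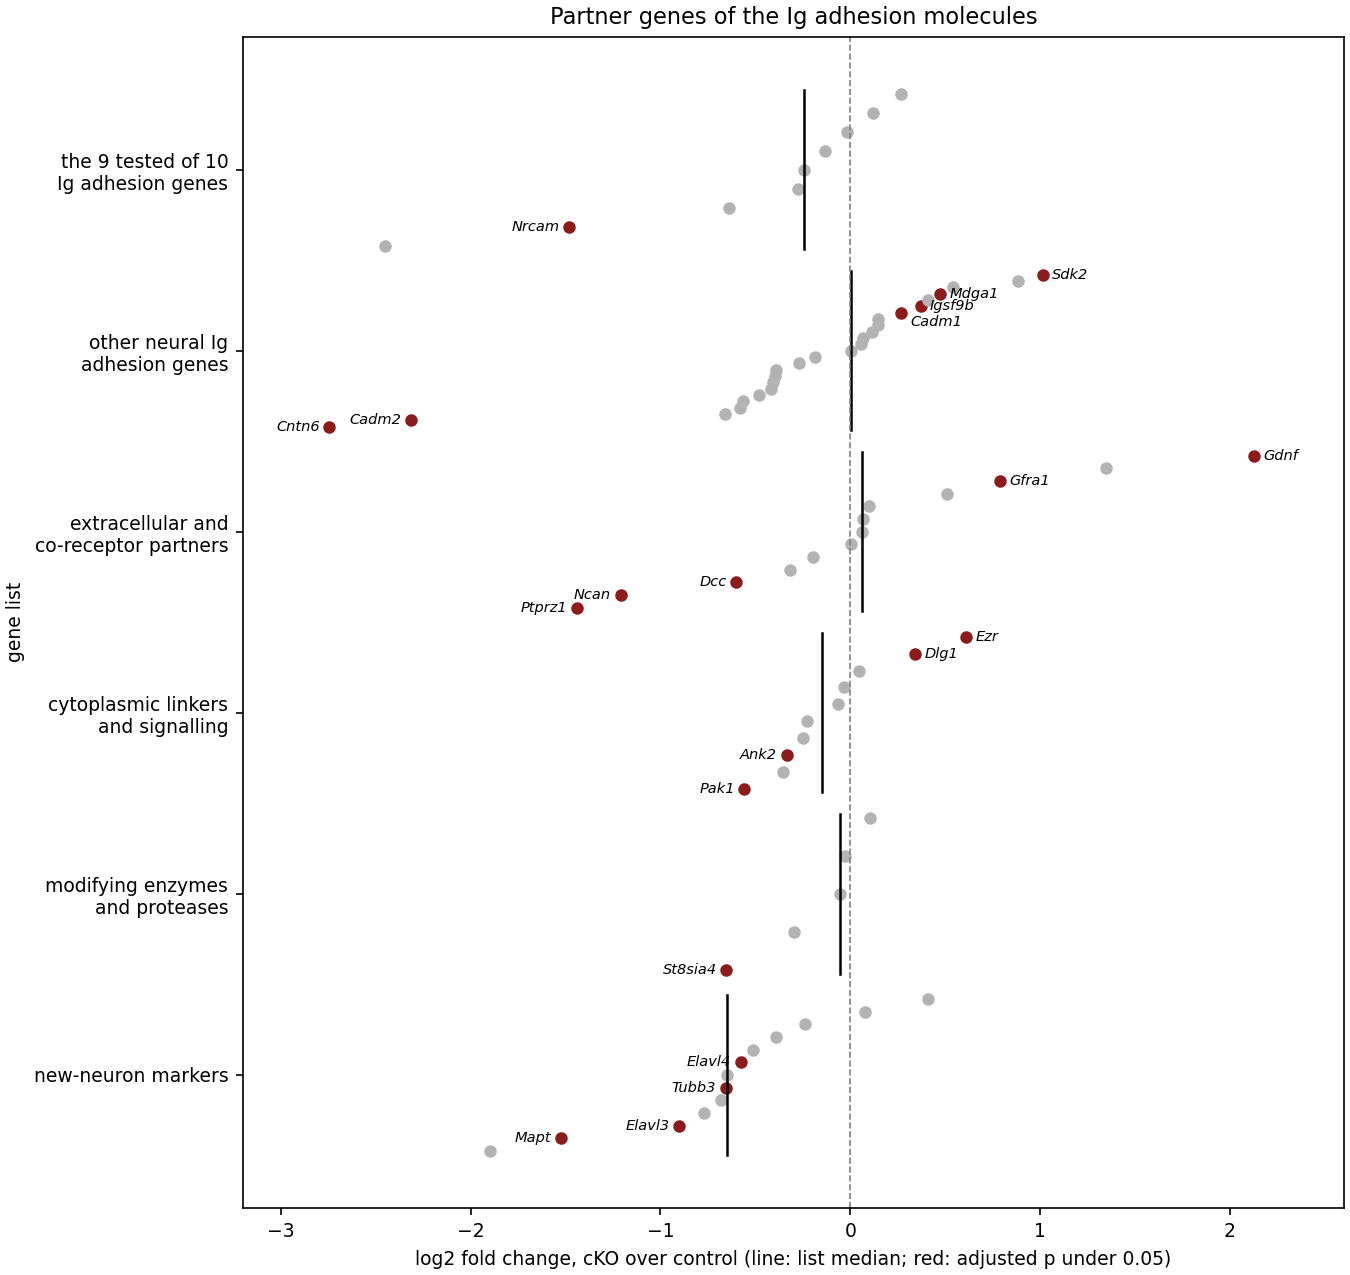
Log2 fold change, cKO over control, of each tested gene in the 10-gene group, in 4 lists of related and partner genes and among new-neuron markers; red points have an edgeR adjusted p under 0.05 and black lines are list medians. Called genes lie on both sides of 0 in the lists of other Ig adhesion genes, partners and linkers.

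The genes whose centred log2 CPM over the 4 libraries lay nearest to that of Nrcam, over genes averaging 5 CPM or more, were Mtus1 (Euclidean distance 0.11), Wnt7a (0.14) and Chd7 (0.18). Mtus1 measured 15.3 and 14.8 CPM in the cKO libraries, against 41.0 and 37.8 CPM in the controls. The measure rests on 4 libraries.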

How the data were processed

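RNA-seq libraries were made from polyA RNA with a VAHTS Universal V8 kit, per the labels' protocols. The deposited counts are raw paired-end read counts over exons, summed per gene by featureCounts 2.0.1 against RefSeq genes of mm10 (GRCm38), per the file headers; the command sets no strand option. The submitters' processing notes name HISAT2 and DESeq2, without versions. The authors' deposited table holds log2 fold changes with their SE, raw and adjusted p-values, a Wald score that was not used, and normalized counts (a signal equal to the raw count times 1 constant per library, 0.987 to 1.010). 0 columns of per-sample values lacked a sample.

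Genes were kept by filterByExpr (minimum count 10), scaled by TMM and tested with edgeR 4.0.16 (glmQLFit, glmQLFTest, R 4.3.3) without covariates, with Benjamini-Hochberg adjustment over all 14235 tested genes. The SE is the log2 fold change over the root of F, and intervals use the fit's t quantiles. The fit was tested on simulated data. The biological coefficient of variation was 0.0785. Replicates of a group differed by more than sampling noise (chi-square per degree of freedom 4.69 for cKO and 5.57 for control). Alternatives used DESeq2 1.42.0, limma-voom 3.58.1, other scaling factors and filters, a replicate block and each library left out. Named genes are the 10 members and, per list, up to 4 called genes with the smallest adjusted p (in a list without calls, the 2 lowest p-values), Chd7, Sox1 and the 3 genes nearest to Nrcam. Cadm2, Igsf9b, Gdnf, Six3, Tbr1, Nefl, Nefm, St8sia2, Ank3 and the markers given at 0 counts were named after their values were seen. Members and lists were chosen with earlier results of these data known. Plots used matplotlib 3.10.9.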

Additional observations from a re-analysis of the deposited data

How the results depend on the processing

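Nrcam was called lower under every alternative run. Genes called numbered 223 higher and 303 lower; with the replicate number as a block, 137 were higher, and with a library left out 80 to 351 were higher and 131 to 418 lower. Of the 10 adhesion genes, 1 was called lower as reported and 3 with the DESeq2 Wald test. The number varied with a library left out, and without control replicate 2 it included Ncam2, which passed the filter through control replicate 1. Alcam (-0.64) and Chl1 (-2.47) passed in the DESeq2 test. With a library left out, Alcam ranged from -0.99 to -0.35, Chl1 from -3.17 to -0.97, L1cam from -0.65 to 0.073, Nfasc from -0.12 to 0.33, Cntn1 from -0.17 to 0.60 and Dscam from -0.31 to 0.35. Dscam was 0.014 with limma-voom and 0.0028 with the replicate block.

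Other Ig adhesion genes called higher numbered 1 with the block and 0 to 1 with a library left out, against 4. Those called lower numbered 1 with no filter, a mean of at least 5 CPM, limma-voom or the block, and 0 to 3 with a library left out, against 2. Extracellular partners called higher numbered 1 with a mean of at least 5 CPM, 0 with the block and 0 to 3 with a library left out, against 2; those called lower numbered 1 to 4 with a library left out, against 3. The cause of these shifts was not tested. The replicate numbers did not pair the libraries (correlation of deviations -0.013), and the block changed no call among the 10 genes; Gfra1, Gdnf, Cadm1, Cadm2, Mdga1, Igsf9b, Ank2, St8sia4, Sox1 and Elavl4 were not called under it (adjusted p 0.058 to 0.086). Fits with a library left out take the spread of the single remaining library from the other group. Chl1, Cntn1 and Dscam fall below a mean of 5 CPM and have no value under that filter. Ncam2 has no value with the count filter when no library is left out. The share of Alcam in the summed difference, computed after seeing the data, was 31.7% to 68.5% with a library left out, and that of Nrcam 26.2% to 30.7%. Of the tested adhesion genes, Chl1, Cntn1 and Dscam have the widest intervals. For Chl1 the controls also lay apart, at 86 and 19 counts.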
